A study of Mus musculus with 7 samples.

Results

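Skeletal muscle genes were followed through RNA-seq libraries of interscapular brown adipose tissue, a fat depot that makes heat and lies between the shoulder blades against muscle of the back. The genes were 38 members of a list of sarcomere, calcium-handling and muscle energy genes, matched by symbol to 38 of the 53715 gene identifiers of the count table. The animals were male C57BL/6J mice aged 10 weeks, either wild type (WT) or knockouts (KO) of PGAM5, a phosphatase of mitochondria. The labels list 3 WT and 4 KO mice as separate individuals. Columns for 6 libraries were used, WT 1 to WT 3 and KO 1 to KO 3, and KO replicate 4 was not analysed here. The labels do not say whether PGAM5 was absent from all cells or how the allele was made.

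A sarcomere is the contractile unit of striated muscle, in which thick filaments of myosin slide along thin filaments of actin. Calcium released through the ryanodine receptor binds troponin on the thin filament and permits contraction, and a calcium pump of the sarcoplasmic reticulum then clears it. Fast (glycolytic) and slow (oxidative) fibres use different genes for myosin, troponin and calcium storage. Brown adipocytes come from precursors that share a lineage with skeletal muscle, and smooth muscle of the vessels uses some of the same genes, so that not every member marks a muscle fibre.

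The libraries held 18034204 to 33617762 counts. Pgam5 was at 5.47 to 8.14 CPM (counts scaled to a common library size with TMM factors) in WT and 0.0455 to 0.537 CPM in KO, as labelled. On the first principal component WT 2 and KO 3 lay at opposite ends, far from the rest. Genes of the mitochondrial genome took 30.3% to 43.0% of the WT counts and 19.7% to 34.1% of the KO counts. The brown fat label was borne out by Ucp1, the uncoupling protein of heat production, and by Fabp4, an adipocyte fatty acid binding protein, at means of 2297 and 8662 CPM in WT. The 12 brown adipocyte markers summed to 14378 to 17971 CPM in WT, against 16553 to 18999 CPM in KO.

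Promoters of 6 members are printed because they stand for the 2 behaviours described below. Acta1 (skeletal alpha-actin), Ckm (muscle creatine kinase), Atp2a1 (the fast-fibre calcium pump) and Myh4 (the fast myosin heavy chain IIb) varied together between libraries, while Myl1 (an essential myosin light chain) and Des (desmin, the intermediate filament of muscle) stayed nearly level. Each run holds the 250 bases before the start, 5′ to 3′ on the gene's strand, from RefSeq on GRCm38.p6. Capitals mark matches, on either strand, to CANNTG (the E-box, bound by MyoD-type factors), TATAAA, the MEF2 motif or the CArG box (bound by serum response factor). CAGCTG is 1 form of CANNTG and is included in it.
Acta1: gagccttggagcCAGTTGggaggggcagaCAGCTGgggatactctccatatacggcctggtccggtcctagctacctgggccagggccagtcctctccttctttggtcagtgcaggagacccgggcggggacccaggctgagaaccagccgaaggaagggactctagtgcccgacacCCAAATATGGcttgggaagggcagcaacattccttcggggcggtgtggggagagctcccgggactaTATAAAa
Ckm: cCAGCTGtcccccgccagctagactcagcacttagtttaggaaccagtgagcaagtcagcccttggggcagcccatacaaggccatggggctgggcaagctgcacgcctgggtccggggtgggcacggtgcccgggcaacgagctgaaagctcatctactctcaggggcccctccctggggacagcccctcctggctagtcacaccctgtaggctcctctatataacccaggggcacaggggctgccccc
Atp2a1: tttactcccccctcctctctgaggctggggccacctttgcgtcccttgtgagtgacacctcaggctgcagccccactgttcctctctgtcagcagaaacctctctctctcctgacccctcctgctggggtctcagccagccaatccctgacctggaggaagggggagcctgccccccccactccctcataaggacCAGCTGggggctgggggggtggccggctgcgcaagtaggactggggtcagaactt
Myh4: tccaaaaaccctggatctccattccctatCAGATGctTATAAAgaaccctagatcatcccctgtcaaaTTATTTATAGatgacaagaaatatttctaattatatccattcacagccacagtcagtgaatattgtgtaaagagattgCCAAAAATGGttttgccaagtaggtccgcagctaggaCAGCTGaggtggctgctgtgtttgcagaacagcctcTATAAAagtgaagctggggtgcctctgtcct
Myl1: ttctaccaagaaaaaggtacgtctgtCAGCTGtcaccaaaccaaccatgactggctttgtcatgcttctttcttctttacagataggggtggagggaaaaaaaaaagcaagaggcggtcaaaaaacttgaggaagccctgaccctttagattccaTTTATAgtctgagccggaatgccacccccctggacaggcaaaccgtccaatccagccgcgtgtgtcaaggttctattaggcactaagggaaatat
Des: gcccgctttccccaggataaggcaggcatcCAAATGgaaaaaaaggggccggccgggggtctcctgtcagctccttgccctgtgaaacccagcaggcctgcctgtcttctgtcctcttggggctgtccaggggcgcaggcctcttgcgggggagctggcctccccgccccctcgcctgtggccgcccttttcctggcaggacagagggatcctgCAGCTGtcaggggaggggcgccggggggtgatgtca

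The windows lie at chr8:123894776-123895025 (minus strand) for Acta1, chr7:19410844-19411093 (plus strand) for Ckm, chr7:126463074-126463323 (minus strand) for Atp2a1, chr11:67237562-67237811 (plus strand) for Myh4, chr1:66945057-66945306 (minus strand) for Myl1 and chr1:75360042-75360291 (plus strand) for Des. CAGCTG was present in all 6, those of the varying and of the level genes alike. RefSeq gave 36 such windows for 30 of the 38 member genes, some genes having several starts. CAGCTG was found in 17 of these 36 windows and in 13.0% of all 32851 windows of the same length. The CArG box was found in 3 of the 36 (of Acta1, Myh4 and Myl3) and in 1.47% of all windows. The MEF2 motif was found in 6 (of Casq2, Myh1, Myh4, Myoz2, Pvalb and Ttn) and in 2.92% of all windows, TATAAA in 6 and in 12.4%, and CANNTG in 31 and in 66.2%. A match of letters is a description and shows no binding.

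Muscle genes were a trace in every library. The 38 members took 0.0160% of the counts in WT 1 (95% Wilson interval 0.0155% to 0.0165%), 0.0161% in WT 2 (0.0155% to 0.0167%) and 0.0231% in WT 3 (0.0226% to 0.0236%). In KO they took 0.0200% in KO 1 (0.0194% to 0.0206%), 0.0238% in KO 2 (0.0232% to 0.0245%) and 0.0169% in KO 3 (0.0163% to 0.0175%). The groups overlapped, with WT 3 and KO 2 the highest of the 6. The intervals cover counting error only.

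Summed over the members, the level was 195 ± 33.4 CPM over the WT libraries and 191 ± 31.3 CPM over the KO libraries (SD, n = 3 each), a log2 ratio of -0.03. Most of this sum came from 4 genes. Myl1, Des, Tpm2 (beta-tropomyosin, which lies along actin in striated and smooth muscle) and Eno3 (the muscle form of the glycolytic enzyme enolase) together held 133 to 152 CPM in WT, against 136 to 182 CPM in KO. They were also the 4 members of highest level per kilobase of exon, at 33.7, 14.3, 5.66 and 5.18 CPM per kb on average over the libraries. Without these 4, the sum was 28.5, 50.3 and 76.3 CPM in WT 1 to WT 3 and 16.5, 70.4 and 20.2 CPM in KO 1 to KO 3, and WT 3 and KO 2 were again the highest. In a tissue with several cell types, fewer cells of a type and less RNA per cell cannot be told apart.

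**Figure D1:**
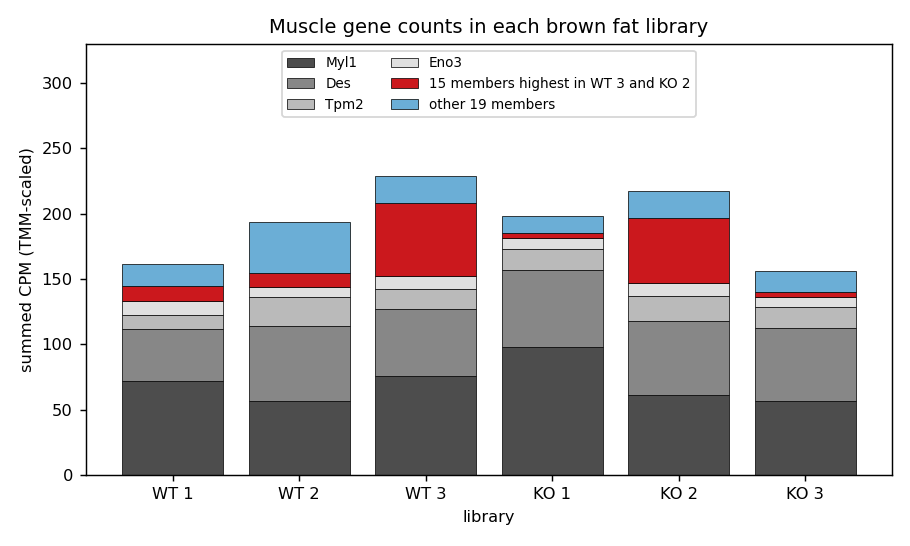
Summed CPM of the 38 muscle genes (vertical axis) in each of the 6 libraries (horizontal axis), 1 stacked bar per library and no error bars. The 4 grey segments together run from 133 CPM in WT 1 to 182 CPM in KO 1, and change less in proportion than the red segment. The red segment is the 15 members picked because WT 3 and KO 2 were their highest libraries. It is 55.7 CPM in WT 3 and 50 CPM in KO 2 against 3.32 to 11.6 CPM in the other 4 libraries.

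The comparison of KO with WT asks whether loss of PGAM5 goes with a different level of these genes. Of the 38 members, 24 passed the filter on low counts, and 0 of them passed the test (edgeR quasi-likelihood, Benjamini-Hochberg adjusted p under 0.05). Of all 15123 genes tested 0.0595% passed, 0.0198% higher and 0.0397% lower in KO. DESeq2 called 0 of the 26 members to which it gave an adjusted p (0.983% of all genes), and Myh4 was not among these 26. Limma-voom called 0 of 24 (0.0463%). With no filter on low counts edgeR called 1 member, Actn2 (adjusted p = 7.68e-05), and 2.38% of all genes. At an unadjusted p under 0.05 there was 1 member, Actn2, lower in KO, and 0 higher, against 5.49% of all genes lower and 6.3% higher (11.8% in all). No member had groups without overlap, against 19.5% of all genes (10.1% with KO above and 9.39% with KO below). Of the 24 log2 fold changes 17 were negative and 7 positive, with a median of -0.38, while over all genes the median was -0.0019 and 50.2% were negative.

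The other 14 members were too low to test: Myh1, Myh2, Myh7, Myl2, Mylk2, Mybpc1, Tnni1, Tnnc2, Myoz1, Myoz2, Smpx, Sln, Ryr1 and Ampd1. Their totals over the 6 libraries ran from 1 count (Sln and Tnnc2) to 91 counts (Ryr1). Since members enter the test through the libraries in which they are high, the 24 do not stand for the whole list.

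**Figure D2:**
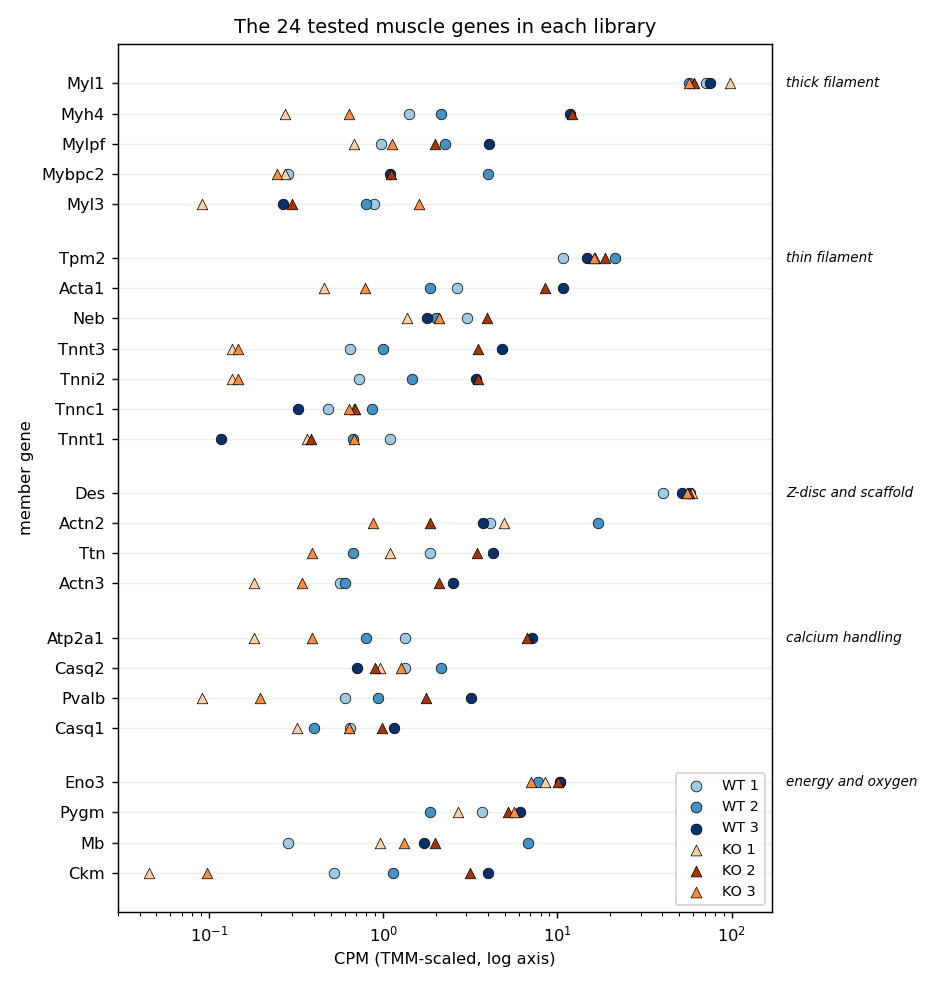
CPM on a log axis (horizontal) of the 24 tested members (vertical, grouped by role), 1 point per library, circles for WT and triangles for KO. The points of Myl1, Des, Tpm2 and Eno3 lie close together, while for Myh4, Acta1, Tnnt3, Tnni2, Atp2a1 and Ckm the darkest circle (WT 3) and the darkest triangle (KO 2) lie far to the right of the other 4.

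Thick filament genes showed both behaviours. Myh4 was at 1.41, 2.13 and 11.8 CPM in WT 1 to WT 3 and at 0.273, 12.1 and 0.635 CPM in KO 1 to KO 3. WT 3 and KO 2 were thus at least 5.53 times any other library, and the groups overlapped. The log2 difference of -0.26 (edgeR, SE 1.15, adjusted p = 0.934) had an error larger than itself. The gene (ENSMUSG00000057003.12) lies on chromosome 11 from 67238029 to 67260446 (mm10), beside the related genes Myh1 and Myh2, with which reads of near-identical sequence can be shared. Myh1, the heavy chain of type IIx fibres, had 14, 1 and 9 counts in the WT libraries and 2, 33 and 6 in the KO libraries. Myh2, the heavy chain of type IIa fibres, had 9 counts in all.

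Myl1 behaved otherwise. It was at 71.6, 56.9 and 75.5 CPM in WT, against 97.5, 60.9 and 56.8 CPM in KO, so that its highest library was 1.72 times its lowest and KO 2 was not among the high ones. Its log2 fold change was 0.08 (SE 0.23, edgeR adjusted p = 0.897). Mylpf, the regulatory light chain that fast fibres pair with Myl1, was at 0.970, 2.27 and 4.03 CPM in WT, against 0.682, 1.97 and 1.12 CPM in KO. Per kilobase of exon Myl1 stood 37.8, 12.8 and 9.58 times above Mylpf in WT 1 to WT 3, and 73.2, 15.8 and 25.9 times above it in KO 1 to KO 3. The excess of Myl1 over its partner was smallest in WT 3 and largest in KO 1. Myl1 (ENSMUSG00000061816.15) lies on chromosome 1 from 66924295 to 66945404.

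Mybpc2, the fast form of myosin-binding protein C, was at 0.283, 4.00 and 1.09 CPM in WT, against 0.273, 1.12 and 0.244 CPM in KO, highest in WT 2. Its log2 fold change was -1.64 (SE 0.91, edgeR adjusted p = 0.476), -0.34 without WT 2 and -2.72 without KO 2. The slow form, Mybpc1, was too low to test, at 0, 4 and 36 counts in the WT libraries and 0, 21 and 1 in the KO libraries, again highest in WT 3 and KO 2. Mylk2, the kinase of skeletal myosin light chains, had 0, 0 and 11 counts in the WT libraries and 4, 10 and 1 in the KO libraries.

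Among thin filament genes, Acta1 was at 2.67, 1.87 and 10.8 CPM in WT, against 0.455, 8.45 and 0.782 CPM in KO. WT 3 and KO 2 were the highest libraries here too, by at least 3.17 times. The log2 fold change was -0.68 (SE 0.97, edgeR adjusted p = 0.775). Acta1 (ENSMUSG00000031972.5) lies on chromosome 8 from 123891769 to 123894751 and resembles the other actin genes closely enough that reads can be shared.

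Troponin has 3 subunits, and fast and slow fibres use different genes for each. Tnnt3, fast troponin T, was at 0.646, 1.0 and 4.83 CPM in WT, against 0.136, 3.52 and 0.147 CPM in KO (log2 -0.79, SE 1.10, edgeR adjusted p = 0.769). Tnni2, fast troponin I, was at 0.727, 1.47 and 3.41 CPM in WT, against 0.136, 3.52 and 0.147 CPM in KO. The profiles of these 2 genes were nearly alike, with KO 1 and KO 3 at 3 counts each for both.

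The third fast subunit, Tnnc2, had 0 counts in 5 libraries and 1 count in KO 3. In WT 3, where Tnnt3 had 164 and Tnni2 116 counts, the 0 counts of Tnnc2 allow up to 3 counts. Of the 800 exonic bases of Tnnc2, 592 (74.0%) overlap exons of Ube2c, a cell cycle gene on the opposite strand, which had 16 to 29 counts in each library. No other member had more than 27.6% of its exons under another gene. The sources used here give no strand setting for the counting, and the part of this overlap in the low Tnnc2 count was not tested.

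Of the slow subunits, 2 were lowest in WT 3 and the third was not. Tnnc1, the troponin C of slow fibres and heart, was at 0.485, 0.867 and 0.324 CPM in WT, against 0.682, 0.687 and 0.635 CPM in KO, lowest in WT 3. Tnnt1, slow troponin T, was at 1.09, 0.667 and 0.118 CPM in WT, against 0.364, 0.386 and 0.684 CPM in KO, and WT 3 was also its lowest library. Tnni1, slow troponin I, had 3 counts in WT 3, 4 in KO 2 and 0 elsewhere. The log2 fold changes of Tnnc1 and Tnnt1 were 0.32 (SE 0.52) and -0.36 (SE 0.74), and neither passed.

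Tpm2 varied less than Acta1, at 10.8, 21.5 and 14.8 CPM in WT, against 16.5, 18.9 and 16.2 CPM in KO, its highest library being 1.99 times its lowest. Its log2 fold change was 0.14 (SE 0.25, edgeR adjusted p = 0.827). Neb, the giant protein nebulin that spans the thin filament, lay between 1.36 and 3.95 CPM and was highest in KO 2 and lowest in KO 1.

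Z-disc and scaffold genes anchor and space the filaments. Des was at 40.4, 57.4 and 51.7 CPM in WT, against 59.2, 56.9 and 55.8 CPM in KO. Its highest library was 1.47 times its lowest, and the log2 fold change was 0.20 (SE 0.17, edgeR adjusted p = 0.616). Desmin is also made by vascular smooth muscle and pericytes, whose 13 markers summed to 456 to 634 CPM in WT, against 504 to 715 CPM in KO.

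Actn2 and Actn3 encode alpha-actinins of the Z-disc, the second of them found in fast fibres. Actn2 was at 4.12, 17.1 and 3.74 CPM in WT, against 4.96, 1.85 and 0.879 CPM in KO, with WT 2 far above the rest and KO 3 lowest. The KO minus WT difference, -1.68 in log2 (SE 0.71, unadjusted p = 0.0406, edgeR adjusted p = 0.419), was the most negative of the 24 and stood at -0.62 without WT 2. Without both WT 2 and KO 3 it was -0.21. Actn3 was instead highest in WT 3 and KO 2, at 0.566, 0.600 and 2.53 CPM in WT, against 0.182, 2.1 and 0.342 CPM in KO. The 2 alpha-actinins thus had different highest libraries.

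Ttn, titin, the spring that runs from Z-disc to mid-sarcomere, was at 1.86, 0.667 and 4.27 CPM in WT, against 1.09, 3.43 and 0.391 CPM in KO. Myoz1, a calsarcin of fast fibres, had 13 counts in WT 3, 14 in KO 2 and 1 to 5 in the others. Myoz2, the calsarcin of slow fibres and heart, had 5 counts in all, and Smpx, a small muscle protein, 8 counts, of which 7 were in WT 3.

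Calcium-handling members were, by Atp2a1, Pvalb and Casq1, highest in WT 3 and KO 2. Atp2a1 was at 1.33, 0.800 and 7.15 CPM in WT, against 0.182, 6.70 and 0.391 CPM in KO (log2 -0.38, SE 1.12, edgeR adjusted p = 0.896). WT 3 and KO 2 exceeded every other library at least 5.02 times. Of its exonic bases 21.9% overlap Rabep2 on the opposite strand, so the strand setting bears on this gene as well.

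Pvalb, the calcium buffer parvalbumin of fast fibres, was at 0.606, 0.934 and 3.18 CPM in WT, against 0.0910, 1.76 and 0.195 CPM in KO. Casq1, the fast calsequestrin that stores calcium, was at 0.646, 0.400 and 1.15 CPM in WT, against 0.318, 0.987 and 0.635 CPM in KO. Casq2, the calsequestrin of slow fibres and heart, was not highest in WT 3 and KO 2, at 1.33, 2.13 and 0.706 CPM in WT, against 0.955, 0.901 and 1.27 CPM in KO. In CPM those 2 libraries were its lowest, but KO 1 and KO 2 had 21 counts each and differed only by the scaling. None of the 3 passed, with log2 fold changes of -1.21 (SE 0.95), -0.22 (SE 0.58) and -0.38 (SE 0.49).

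Ryr1, the ryanodine receptor of skeletal muscle, had 11, 0 and 24 counts in the WT libraries and 4, 51 and 1 in the KO libraries. Sln, sarcolipin, the small regulator of the calcium pump that is known from muscle heat production, had 1 count, in WT 3.

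In energy and oxygen supply, Ckm had 13, 17 and 136 counts in the WT libraries and 1, 73 and 2 in the KO libraries, or 0.525, 1.13 and 4.00 CPM and 0.0455, 3.13 and 0.0977 CPM. It spanned the widest range of the 24, its highest library being 88.0 times its lowest, though the lowest rests on 1 count. Its log2 fold change was -0.80 (SE 1.16, edgeR adjusted p = 0.776). Eno3 was level, at 10.3, 7.74 and 10.3 CPM in WT, against 8.50, 10.1 and 7.08 CPM in KO. Pygm, muscle glycogen phosphorylase, was at 3.68, 1.87 and 6.06 CPM in WT, against 2.68, 5.24 and 5.67 CPM in KO, with WT 3, KO 3 and KO 2 the highest. Ampd1, muscle AMP deaminase, had 16 counts in all.

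Mb, myoglobin, the oxygen store that brown fat also makes, was at 0.283, 6.80 and 1.71 CPM in WT, against 0.955, 1.97 and 1.32 CPM in KO. Like Actn2 and Mybpc2 it was highest in WT 2, the library with the largest mitochondrial share. The log2 difference was -1.0 (SE 0.84, edgeR adjusted p = 0.613) and turned to 0.48 without WT 2. WT 2 carries the negative sign of Mb, and the part of the mitochondrial share in this was not tested.

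WT 3 and KO 2 were the highest libraries for 15 of the 38 members and for 10 of the 24 tested, where this held for 4.86% of all genes tested. This grouping was made after the values had been seen and is a description. The 10 were Myh4, Acta1, Tnnt3, Tnni2, Ttn, Actn3, Atp2a1, Pvalb, Casq1 and Ckm, and the 5 below the filter were Mybpc1, Mylk2, Tnni1, Myoz1 and Ryr1. Since these genes were picked for being highest in WT 3 and KO 2, a ratio above 1 between those libraries and the rest is set by the choice. As a description of its size, the mean of WT 3 and KO 2 over the 10 was 2.13 to 10.7 times the mean of the other 4 libraries, with a median of 6.13 times.

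Within this group WT 3 and KO 2 could be set against each other. KO 2 stood at 0.554 to 1.03 times WT 3 over the 10 tested genes, with a median of 0.818 times. Over all 15 the ratio reached 3.10 times, in Ryr1, with a median of 0.860 times. Per kilobase, Ckm stood at 0.195 times Acta1 in both libraries, against 0.104 in WT 1, 0.320 in WT 2, 0.0527 in KO 1 and 0.0659 in KO 3. Tnni2 stood at 0.748 times Tnnt3 in WT 3 and 1.06 times in KO 2. These pairs were picked from many possible ones. The 15 genes summed to 55.7 CPM in WT 3 and 50 CPM in KO 2.

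Among the other 4 libraries, WT 1 and WT 2 were both above KO 1 and KO 3 for 8 of the 10 genes, against 20.8% of all genes tested. The 10 genes were picked for a shared profile and varied together, so they are not separate observations on these 4 mice. Counts in KO 1 and KO 3 were few, as 3 and 3 for Tnnt3 and 1 and 2 for Ckm. Summed over the 10, counts were 272 in WT 1 and 165 in WT 2, and 64 in KO 1 and 77 in KO 3. With WT 3 and KO 2 both left out, 0 members passed and the median log2 fold change of the 23 then tested was -0.78, from 2 libraries against 2.

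Leaving out WT 3 or KO 2 moved these genes, in the direction that their choice sets. Without KO 2 the 10 genes had log2 fold changes from -4.66 to -0.66, all negative, with a median of -3.45. Without WT 3 they ran from -0.14 to 1.31, and 9 of 10 were positive. In neither case did a member pass (edgeR). The median of all 24 tested members was -1.38 without KO 2 and 0.12 without WT 3, so that the sign of this median depends on which mouse is included. The level genes moved little, Des standing at 0.21 without KO 2 and 0.23 without WT 3.

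**Figure D3:**
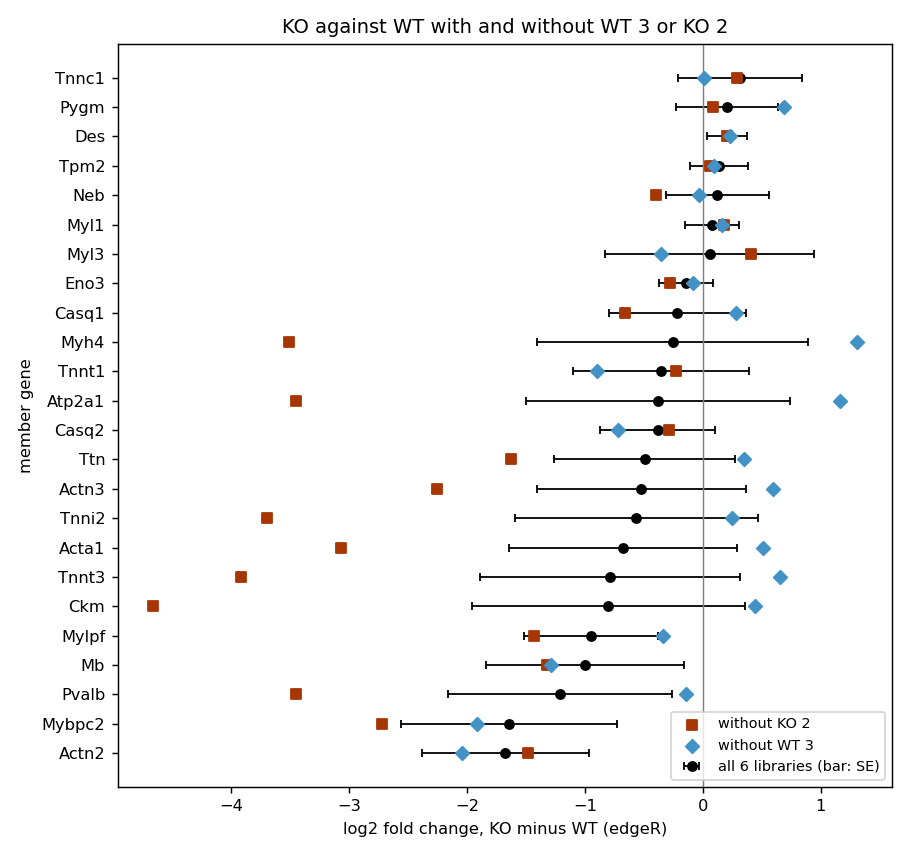
Log2 fold change, KO minus WT (horizontal), of the 24 tested members (vertical): black points with SE bars from all 6 libraries, squares without KO 2, diamonds without WT 3. For Myh4 the value moves from -3.51 without KO 2 to 1.31 without WT 3, whereas for Des, Tpm2 and Myl1 the 3 points nearly coincide.

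Fast-fibre and slow-fibre members were compared by fold change, by highest library and by summed CPM, which depend on scaling between libraries. Their shares within each library, given further below, need no such scaling. Of the 15 fast members 10 were tested, with 9 negative and 1 positive log2 fold change and a median of -0.54. Of the 8 slow members 4 were tested, with 2 negative and 2 positive and a median of -0.15. WT 3 and KO 2 were the highest libraries for 9 of the 15 fast members (7 of the 10 tested) and for 1 of the 8 slow members, Tnni1 (0 of the 4 tested), against 4.86% of all genes tested. Whether the fast and slow lists differ in this was not tested.

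The 14 fast members other than Myl1 summed to 7.96, 13.7 and 40.2 CPM in WT, against 2.59, 36.4 and 4.45 CPM in KO. The 8 slow members summed to 3.92, 4.74 and 1.56 CPM in WT, against 2.14, 2.58 and 4.30 CPM in KO. Over these lists the slow sum was lowest in WT 3, where the fast sum was highest. The slow list does not hold Mybpc1, and with it the sums were 3.92, 5.0 and 2.62 CPM in WT 1 to WT 3, with 2.14, 3.48 and 4.35 CPM in KO 1 to KO 3. KO 1 was then the lowest, so the order of the slow sums depends on that gene. The sum over the 8 rested on 47 to 97 counts per library.

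As a share of the counts of both lists without Myl1, slow members held 33.0% in WT 1 (95% Wilson interval 27.9% to 38.6%), 25.6% in WT 2 (20.8% to 31.1%) and 3.74% in WT 3 (2.87% to 4.85%). In KO they held 45.2% in KO 1 (36.0% to 54.8%), 6.6% in KO 2 (5.16% to 8.40%) and 49.2% in KO 3 (41.9% to 56.4%). The intervals cover counting error only. Without Myl1, a choice made after seeing the data, WT 3 and KO 2 lay below the other 4 libraries, and the groups overlapped. Of the 14 fast members then left, 9 are among the genes picked for being highest in WT 3 and KO 2. The low slow share in those libraries is thus largely that pattern again and is no separate result. WT 3 and KO 2 were also the lowest with Mybpc1 counted as slow, at 6.12% in WT 3 and 8.71% in KO 2. That order did not hold with Myl1 among the fast members. The share was then 4.70%, 6.28% and 1.33% over the WT libraries in their order, against 2.09%, 2.58% and 6.56% over the KO libraries, with KO 1 below KO 2.

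The troponins, a part of the same lists, gave the same order of libraries. Slow subunits held 53.4%, 38.3% and 6.04% of troponin counts in WT and 79.3%, 15% and 79.4% in KO. Nearly all fast troponin counts were of Tnnt3 and Tnni2, both among the genes picked for being highest in WT 3 and KO 2. The low share in those libraries is thus set by that choice and is no separate result. In KO 1 and KO 3 these shares rest on 29 and 34 counts. Of the adult myosin heavy chains, Myh7, the slow one, had 3, 3 and 0 counts in the WT libraries and 0, 1 and 0 in the KO libraries, against 49, 33 and 412 counts of Myh1, Myh2 and Myh4 in WT and 8, 320 and 21 in KO. Myh7 was thus 5.77% of the heavy chain counts in WT 1 (95% Wilson interval 1.98% to 15.6%) and 8.33% in WT 2 (2.87% to 21.8%). In KO 1, with 8 heavy chain counts, its share could be up to 32.4%. Fast heavy chains held most of the counts in each library. Myl2, the slow regulatory light chain, had 3 counts in all. Myl3, the slow essential light chain, was at 0.889, 0.800 and 0.265 CPM in WT, against 0.0910, 0.300 and 1.61 CPM in KO, with KO 3 its highest library.

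**Figure D4:**
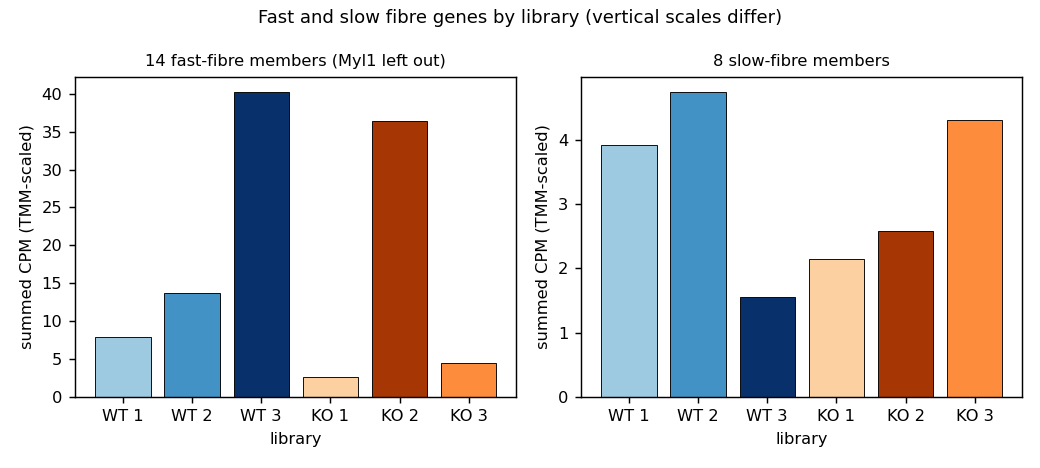
Summed CPM (vertical) of 14 fast-fibre members without Myl1 (left) and of 8 slow-fibre members (right) in each library (horizontal), with different vertical scales and no error bars. The fast sum reaches 40.2 CPM in library WT 3, 36.4 CPM in library KO 2 and at most 13.7 CPM elsewhere, while the slow sum stays between 1.56 and 4.74 CPM.

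Other genes of muscle, from a list of 52 that holds no member, were examined the same way. Of these, 21 were tested and 0 passed in edgeR, with 3 higher (6.3% of all genes) and 0 lower (5.49%) at an unadjusted p under 0.05. In 5 of the 21, Myom3, Pfkm, Phka1, Phkg1 and Sypl2, every KO library was above every WT library, against 10.1% of all genes. In 0 of the 21 every KO library was below, against 9.39% of all genes. Among the 21 log2 fold changes 13 were positive and 8 negative (median 0.10). DESeq2 called 1, Myom3. Tpm1 and Pfkm had the highest levels of the 52, and both are widely expressed outside muscle. Tpm1, another tropomyosin, was at 103 ± 53.2 CPM among WT mice and 65.2 ± 4.74 CPM among KO mice (SD, n = 3 per genotype), and Pfkm, muscle-type phosphofructokinase, at 72.9 ± 1.45 and 85.3 ± 8.73 CPM.

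WT 3 and KO 2 were the highest libraries for 2 of the 21 tested genes of this list, against 4.86% of all genes tested. They were also the highest for 11 of the 31 genes that were too low to test. The share among all genes too low to test was not computed. Some of the 11 rest on very few counts, as Cav3, with 1 count in WT 3 and 1 in KO 2. The 3 examples that follow were chosen after their values were seen. Trdn, triadin, which ties calsequestrin to the ryanodine receptor, had 5, 2 and 40 counts in the WT libraries and 1, 22 and 1 in the KO libraries. Tcap, the titin cap protein, had 4, 0 and 21 counts in the WT libraries and 0, 26 and 3 in the KO libraries. Xirp2, which was tested, a protein of the muscle cell's filament attachments, was at 0.566, 0.467 and 1.35 CPM in WT, against 0.0910, 1.93 and 0.0489 CPM in KO.

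Myom3, a myomesin that crosslinks thick filaments at mid-sarcomere, had other highest libraries. It was at 3.11, 2.93 and 1.80 CPM in WT, against 6.00, 8.50 and 9.58 CPM in KO, with every KO library above every WT library. In edgeR this difference (log2 1.63, SE 0.31) missed the threshold, with an adjusted p = 0.219. With DESeq2 it passed (adjusted p = 0.000946), and over the 15 alternatives the adjusted p ran from 0.000103 (no filter on low counts) to 0.605 (WT 3 and KO 2 both left out). Fndc5, the irisin precursor gene, which muscle expresses, was at 0.485, 0.400 and 1.41 CPM in WT, against 16.4, 10.4 and 10.3 CPM in KO (edgeR log2 3.91, SE 0.46, adjusted p = 0.0208). Within WT, Fndc5 was highest in WT 3, and within KO in KO 1. How far muscle fibres contribute to its level was not tested.

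The myogenic factor genes Myod1, Myf5 and Myf6 had 0 counts in every library, and Myog and Pax7 had 1 count each in all. The developmental myosins Myh3 and Myh8 had 1 and 2 counts. Cardiac markers summed to 4.06 to 6.42 CPM in WT, against 5.15 to 9.72 CPM in KO, with Myl7, Nppa and Nppb at 0, and WT 3 and KO 2 held the lowest sums. Those of the neuromuscular junction summed to 5.07 to 5.62 CPM in WT, against 2.98 to 5.19 CPM in KO, most of it Chrnb1, and that of smooth muscle and pericytes was highest in KO 3. Whether muscle carried over in dissection accounts for the transcripts shared by WT 3 and KO 2 was not tested.

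Outside the members, the 5 genes whose log2 CPM ran most like the mean of the 10 tested fast members over the 6 libraries were Mmp3, Hspa13, Ddx6, Lnx1 and Nvl (Pearson r 0.987, 0.980, 0.978, 0.975 and 0.971). None is on the muscle lists. They varied far less, as in Hspa13, at 17.2, 20.7 and 24.3 CPM in WT, against 13.7, 25.0 and 16.2 CPM in KO. With 6 libraries and 15123 genes, such values of r describe likeness only.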

How the data were processed

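Poly(A) RNA-seq libraries from 3 WT and 3 KO mice were used. The authors deposited raw gene counts, made with HISAT2 2.1.0 and featureCounts 1.6.2 on mm10, per the submitters' processing notes. For the annotation release, strand setting and multiply mapped reads the sources used here give nothing. Symbols, positions and exon lengths came from GENCODE M21, which gave a symbol for 53620 of 53715 identifiers.

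Genes were filtered with filterByExpr (minimum count 10, minimum total 15), scaled by TMM and tested with edgeR 4.0.16 (quasi-likelihood, genotype only), with Benjamini-Hochberg adjustment over 15123 genes and a threshold of 0.05. The SE of an edgeR log2 fold change was derived from the quasi-likelihood F statistic, as the size of the fold change divided by the square root of F. CPM used TMM-scaled library sizes. DESeq2 1.42.0 and limma 3.58.1 (voom) were alternatives, in R 4.3.3. The totals of 18034204 to 33617762 counts put 3 counts at 0.0892 to 0.166 CPM. On simulated data for KO against WT with 15123 genes, edgeR recovered 88.7% of 4-fold and 31.7% of 2-fold changes. These changes were placed only in genes above a minimum mean level, which some tested members, such as Casq1 (mean 0.689 CPM), did not reach. The shares are averages over genes and do not carry over to the most variable members, such as Ckm (SE of log2 fold change 1.16).

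The members and lists were chosen with earlier results of these data known. Members given in full were, by role, the 2 of highest level and those of extreme fold change, and the 3 highest fast and slow members. Other members were added to account for the list. From other lists the 2 highest were named, and Trdn, Tcap, Xirp2 and Myom3 were named after their values were seen. Leaving out WT 3 with KO 2, WT 2 with KO 3, the 4 highest members, or Myl1, and counting Mybpc1 as slow, was chosen after seeing the data. A result on 1 other muscle gene is not reported here.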

Additional observations from a re-analysis of the deposited data

How the results depend on the processing

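Against 9 genes called in all, DESeq2 called 157 (76 higher, 81 lower), edgeR without the filter 663 (330 higher, 333 lower), edgeR without WT 3 and KO 2 called 3 and without WT 2 and KO 3 called 27. Leaving out single libraries gave 0 (without KO 2) to 17 (without WT 2), and 1 without KO 1. With the replicate number as a block 5 were called, and no member. Same-numbered libraries deviated from their group means with correlations of -0.11, 0.10 and 0.09, so the numbers were not taken to pair the mice. Members called stayed at 0 except without the filter (1, Actn2, log2 -1.66), and at 0 to 0 without single libraries. Of the other muscle genes, DESeq2 and edgeR without the filter each called 1, and the counts without single libraries were 0 to 0. The members' median of -0.38 ran from -1.38 to 0.16 without single libraries, and that of the other muscle genes from 0.047 to 0.34. The log2 ratio of summed levels (-0.03) was -0.63 as a mean of log2 CPM over tested members, -0.53 without the 4 highest members, and -0.15 to 0.10 without single libraries. The log2 slow to fast ratio, KO minus WT (-0.06), was 1.94 for troponins, 1.03 without Myl1, -0.18 with Mybpc1 counted as slow, and -0.75 to 0.40 without single libraries. Myosin heavy chains alone gave no value, since Myh7 was at 0 in WT 3, KO 1 and KO 3.

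Of 247 values for 17 named members, 221 kept direction and call and 25 reversed. The cause was not tested. Mb turned to 0.073 with voom and 0.53 without WT 2 and KO 3, Mybpc2 to 0.000226 and Pygm to -0.30 without those libraries, and Tnnc1 to -0.0065 without WT 3 and KO 2. Myl3 turned to -0.50 with voom and to -0.44 with the replicate block. Without single libraries, log2 fold changes ran from -3.06 to 0.51 for Acta1, -3.45 to 1.17 for Atp2a1, -0.66 to 0.28 for Casq1, -0.72 to 0.038 for Casq2, -1.55 to 0.48 for Mb, -3.51 to 1.31 for Myh4, -0.20 to 0.22 for Myl1, -1.66 to 0.58 for Myl3, -0.11 to 0.69 for Pygm, -3.91 to 0.65 for Tnnt3 and -0.074 to 0.42 for Tpm2. Fits that leave 2 libraries in a group assume that they vary like the others. Depth limits the 14 untested members, and DESeq2 made more false calls than edgeR on simulated data (16.1% against 7.08% of calls). These data were 3 draws with edgeR's own dispersion estimates, which can favour edgeR. DESeq2 ran there on the filtered genes, unlike its run on the real counts.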
